A study of Mus musculus with 12 samples.

Results

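Cytochromes P450 are haem enzymes of the endoplasmic reticulum and mitochondria that insert oxygen into lipids, steroids, bile acid precursors and foreign compounds. The microsomal members take their electrons from NADPH through cytochrome P450 oxidoreductase, which is encoded by Por. Related enzymes share a family number, and the liver carries many of them for cholesterol and bile acid synthesis as well as for the clearance of drugs. Probes were taken as members when a scanner file gave them a gene name that starts with Cyp and a family number, or the name Por. This held for 19 of 20280 probes, and these stand for 12 genes, namely 11 P450 genes from 11 families and Por, among 10501 distinct names other than clone numbers.

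The probes were measured in liver of male FVB mice, 6 weeks old, that were fed or had been without food for 12, 24 or 72 hours. Each group had 3 two-colour arrays, and each array carried RNA pooled from 2 livers in the Cy3 channel and the same reference, a pool of 6 fed livers, in the Cy5 channel. The spread between arrays is therefore that between pools, not between mice. Dyes were not exchanged, and a value below is the log2 ratio of sample over fed reference after normalization.

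The names need care, because the files carry 2 versions of them. In one version, found in 3 files, 12 probes qualify, in the other, found in 9 files, 18 do, and 11 qualify in both. Both Cyp2e1 probes (13376 and 21110), Cyp7b1 probe 14469, Cyp27b1 probe 15134 and Por probe 20660 have a P450 or Por name in the second version only. Probe 2595 is Cyp11a in the first version only, with the remark that it is unspliced. Probe 6613 is Cyp4v3 in the second version and Klkb1, plasma kallikrein, in the first, and Klkb1 lies next to Cyp4v3 in the RefSeq annotation of GRCm38.p6. Probes named Cyp17, Cyp40 and A930011N14Rik in the first version are Cyp17a1, Cyp27b1 and Cyp20a1 in the second.

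Without food, ratios at 72 hours lay farthest above fed liver for Por probe 12036 and for Cyp39a1, an oxysterol hydroxylase of bile acid synthesis. They lay farthest below it for probe 14248 of Cyp51, the lanosterol demethylase of cholesterol synthesis. The other probes of Por and Cyp51 had smaller differences, 0.34 and -0.53 in log2 fold change at 72 hours. At 12 hours, Cyp7b1 on 1 of its probes was second to Por probe 12036, with a log2 fold change of 1.36. Cyp17a1, the steroid hydroxylase and lyase, was higher at 24 and 72 hours. None of these differences passed the test across all probes, which was limma with Benjamini-Hochberg adjustment at 0.05 and at least 1.4-fold. It called 0 of 19 members at 12 hours, where it called 0.00497% of all 20110 probes tested, 0 of 19 at 24 hours (0.00497% of all) and 0 of 19 at 72 hours (0.00996% of all 20081). The smallest adjusted p among the members was 0.956, 1.00 and 0.75, respectively.

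At an unadjusted p under 0.05 with at least 1.4-fold, 2 members were higher than in fed liver at 12 hours (1.55% of all probes) and 1 was lower (1.42% of all). At 24 hours, 3 were higher (1.06% of all) and 1 was lower (0.91% of all), and at 72 hours 3 were higher (1.01% of all) and 3 were lower (0.329% of all). These came from 7 probes of 6 genes. The median log2 fold change of the 19 members was 0.024, -0.12 and 0.035 at the 3 time points, against -0.0056, -0.0022 and -0.015 over all probes. All 3 comparisons share the fed arrays, so that they are not independent of each other.

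**Figure D1:**
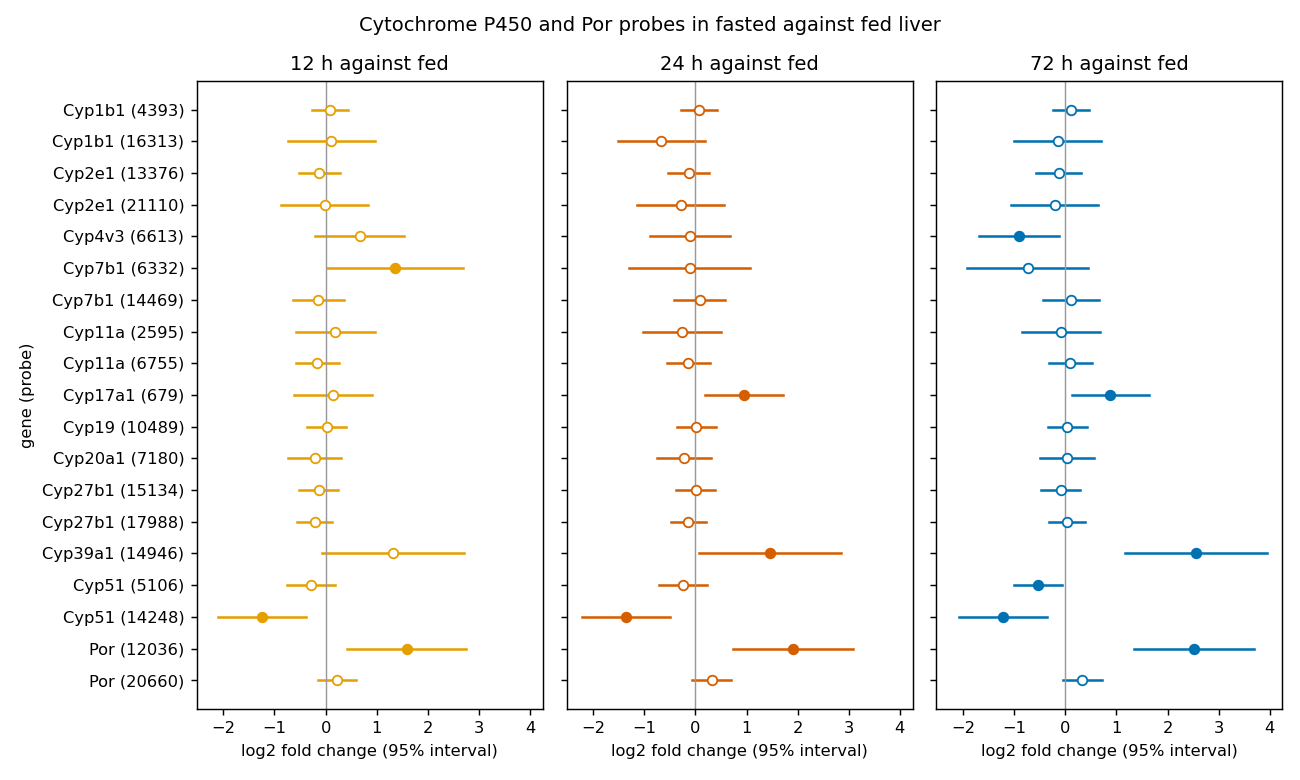
Log2 fold change of each P450 and Por probe at 12, 24 and 72 hours against fed (x axis), with limma's 95% interval as the line; rows are genes with the probe number in brackets, in order of family with Por last. Filled points had an unadjusted p under 0.05 and at least 1.4-fold, 3, 4 and 6 probes at the 3 time points, and open points did not; most probes sit near 0, with Por probe 12036 and Cyp39a1 farthest to the right at 24 and 72 hours, Por probe 12036 and Cyp7b1 probe 6332 at 12 hours, and Cyp51 probe 14248 farthest to the left throughout.

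Por was carried by a pair of probes. On probe 12036, the 2 fed arrays with a usable spot stood at 1.31 and 0.92. The arrays stood at 3.09, 1.97 and 3.04 after 12 hours, at 3.45, 2.76 and 2.88 after 24 hours, and at 3.40, 4.70 and 2.80 after 72 hours. All 9 fasted arrays thus lay above the fed arrays. Relative to fed, the log2 difference was 1.59 at 12 hours (SE 0.52, unadjusted p = 0.013, limma adjusted p = 0.956), 1.91 at 24 hours (unadjusted p = 0.0046, adjusted p = 1.00) and 2.52 at 72 hours (unadjusted p = 0.00076, adjusted p = 0.75). The last of these is 5.72-fold, with a 95% interval from 2.54- to 12.9-fold. The steps from 12 to 24 hours, 0.33, and from 24 to 72 hours, 0.61, had adjusted p of 0.996 and 1.00 by limma.

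The second Por probe, 20660, had smaller differences. Its fed arrays stood at -0.14, -0.09 and 0.09, and its 72-hour arrays at 0.15, 0.40 and 0.32. The 24-hour arrays, at 0.34, 0.15 and 0.30, also lay above the fed arrays, while the 12-hour arrays, at -0.03, 0.49 and 0.06, overlapped with them. The log2 fold changes were 0.22, 0.31 and 0.34, with a 95% interval at 72 hours from -0.036 to 0.71, all of it below the interval of probe 12036, which began at 1.35. The probes thus had the same direction and different sizes, and probe 20660 carried the name Por in only one version of the names.

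On probe 12036 the fed samples were above the fed reference, although both are RNA of fed liver, and the mean of the log2 ratio there was 1.12. Its reference spots were dim, between 2.19 and 5.64 times the local background, while the sample spots went from 9.98, 20.3 and 19.5 times background on the fed arrays to 96.7, 186.6 and 55.7 on the 72-hour arrays. The reference spots of probe 20660 lay between 11.3 and 38.3 times background. When the sample channel alone was tested, without the reference, probe 12036 was still higher at 72 hours, by 2.78 on the log2 scale. What part the dim reference plays in the size of the difference was not tested.

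**Figure D2:**
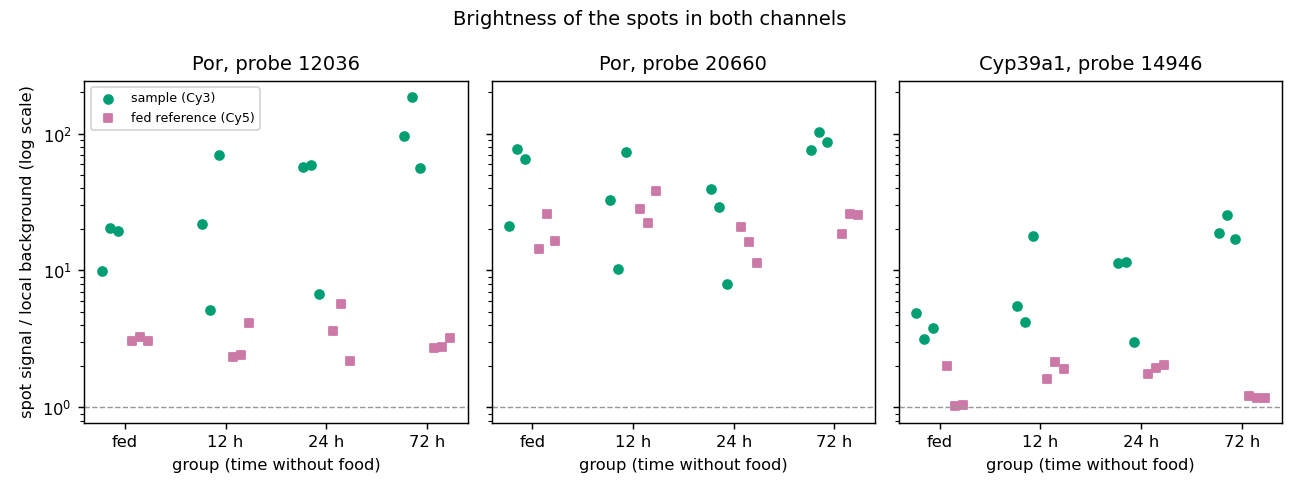
Spot signal over local background, on a log axis, of both Por probes and the Cyp39a1 probe on each of the 12 arrays; circles are the liver sample (Cy3), squares the fed reference (Cy5), and the dashed line at 1 is the background. The reference of Por probe 12036 and of Cyp39a1 stayed below 6 times background on every array, whereas that of Por probe 20660 did not fall under 11.

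Of the enzymes of bile acid and oxysterol metabolism, Cyp39a1 had the largest difference. Its fed arrays stood at 0.24, 0.05 and 0.04. After 12 hours they stood at 1.54, 0.31 and 2.48, after 24 hours at 2.43, 2.27 and 0.02, and after 72 hours at 2.37, 2.98 and 2.65. The 12- and 72-hour arrays all lay above the fed arrays, and the 24-hour arrays overlapped with them through 1 array. The low arrays, replicate 2 at 12 hours and replicate 3 at 24 hours, are those with the dimmest samples, at a median of 4.72 and 3.50 times background over all probes, where the other 10 had 5.34 to 10.6. The log2 fold change of Cyp39a1 was 1.33 (unadjusted p = 0.059), 1.46 (unadjusted p = 0.041) and 2.55 (SE 0.63, unadjusted p = 0.002) at the 3 time points, with limma adjusted p of 0.956, 1.00 and 1.00. At 72 hours this is 5.87-fold, with a 95% interval from 2.24- to 15.4-fold. Its reference spots were at 1.02 to 2.15 times background, and the log2 fold change at 72 hours was 1.89 without background correction and 3.61 with the log ratio of the scanner software.

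Cyp7b1, the oxysterol hydroxylase of the alternative bile acid pathway, gave no common pattern on its pair of probes. Probe 6332 stood at 0.36, 0.40 and -0.40 in fed liver and at 1.48 and 1.49 on the 2 usable 12-hour arrays, above all fed arrays. It stood at 0.94, 0.47 and -1.40 after 24 hours and at -1.05, -0.09 and -0.71 after 72 hours, and in both cases the arrays overlapped with fed. On the log2 scale the difference from fed was 1.36 at 12 hours (unadjusted p = 0.045, limma adjusted p = 0.956), -0.12 at 24 hours and -0.74 at 72 hours. Probe 14469 had log2 fold changes of -0.14, 0.083 and 0.12, none with an unadjusted p under 0.53, and each had the opposite sign to probe 6332. The 12-hour value of probe 6332 rests on arrays that were quantified on another day than any fed array, and with the day as a block it was -0.98. The spot of the 12-hour array that shares a day with fed was flagged out. The blocked value is thus tied to fed only through the dim 24-hour replicate 3, at -1.76 against the fed array of its day.

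Cyp51 was lower on both of its probes at every time point. Probe 14248 stood at 0.64, 0.22 and 0.04 in fed liver. It stood at -0.22, -2.08 and -0.52 after 12 hours, at -1.03, -0.90 and -1.23 after 24 hours, and at -0.85, -0.89 and -1.02 after 72 hours. All 9 fasted arrays lay below the fed arrays, and the lowest was the dim 12-hour replicate 2. The log2 fold change was -1.24 (SE 0.39, unadjusted p = 0.0088), -1.35 (unadjusted p = 0.0053) and -1.22 (unadjusted p = 0.0097), with limma adjusted p of 0.956, 1.00 and 1.00, and the level was 2.36-, 2.56- and 2.33-fold lower. These 3 values lay within each other's intervals.

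Probe 5106 of Cyp51 had smaller differences, -0.29, -0.25 and -0.53 on the log2 scale. Its fed arrays, at 0.33, 0.11 and -0.13, overlapped with the 12- and 24-hour arrays and lay above the 72-hour arrays, at -0.48, -0.47 and -0.35 (unadjusted p = 0.030, limma adjusted p = 1.00). Its reference spots were at 1.21 to 2.76 times background, those of probe 14248 at 4.57 to 9.82. At 24 hours probe 5106 changed sign, to 0.20, when the sample channel alone was tested.

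Por and Cyp51, each on 1 of its probes, had the largest higher and lower differences among the genes with an entry in the promoter table. Their promoters are printed here as RefSeq gives them for GRCm38.p6, from 250 bases before to 50 after the start. Both strands were searched for the GC box GGGCGG, the CCAAT box, the sterol response element TCACNCCAC, the cAMP response element TGACGTCA, and the nuclear receptor element of AGGTCA repeated with 1 base between. Capitals mark the matches. The Por window is chr5:135688895-135689194 on the plus strand and the Cyp51 window chr5:4104648-4104947 on the minus strand.
Por: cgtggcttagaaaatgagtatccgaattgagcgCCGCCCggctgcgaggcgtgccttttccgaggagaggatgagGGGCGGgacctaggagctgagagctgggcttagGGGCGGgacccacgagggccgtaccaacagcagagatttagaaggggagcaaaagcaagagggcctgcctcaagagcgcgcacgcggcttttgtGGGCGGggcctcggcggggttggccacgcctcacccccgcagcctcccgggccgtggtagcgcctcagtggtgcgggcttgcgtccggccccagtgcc
Cyp51: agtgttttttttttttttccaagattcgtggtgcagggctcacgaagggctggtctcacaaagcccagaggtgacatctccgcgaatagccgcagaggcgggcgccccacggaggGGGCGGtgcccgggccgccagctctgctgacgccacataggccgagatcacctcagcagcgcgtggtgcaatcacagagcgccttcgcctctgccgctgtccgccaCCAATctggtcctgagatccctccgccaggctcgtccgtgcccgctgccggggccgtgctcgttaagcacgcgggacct
The Por window held 4 GC boxes and no CCAAT box, and the Cyp51 window held 1 of each. A GC box stands in 35.7% and a CCAAT box in 37.4% of the 32851 promoters of the table. The letters of the other 3 motifs were in neither window, and they stand in 1.24%, 1.79% and 0.0396% of all promoters. Of the 12 genes, 9 had an entry, and Cyp17a1, Cyp39a1 and Cyp7b1 did not.

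Among the enzymes of steroid hormone and vitamin D synthesis, Cyp17a1 stood apart. Its probe stood at -0.26 and 0.03 on the 2 usable fed arrays and at 0.08, -0.40 and 0.43 after 12 hours, which overlapped. It stood at 1.06, 1.29 and 0.17 after 24 hours and at 0.63, 0.95 and 0.73 after 72 hours, above the fed arrays in both cases, with the dim 24-hour array lowest. Against fed, the log2 difference was 0.15 at 12 hours, 0.95 at 24 hours (SE 0.34, unadjusted p = 0.019) and 0.88 at 72 hours (unadjusted p = 0.027), with limma adjusted p of 0.971, 1.00 and 1.00. In fold terms, Cyp17a1 was 1.93-fold higher at 24 hours and 1.84-fold higher at 72 hours. Its sample and reference spots were well above background on all 12 arrays.

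The other steroid enzymes showed no such difference. Cyp11a, which cleaves the cholesterol side chain, had log2 fold changes of 0.19, -0.26 and -0.088 on probe 2595. Probe 6755 was not well above background on any array at 12 or 24 hours, and no fold is given for these, while its log2 fold change at 72 hours was 0.096. Cyp19, aromatase, had log2 fold changes of 0.024, 0.013 and 0.036, and the reference was well above background on only 5 of 12 arrays. Cyp27b1, which activates vitamin D, had values between -0.22 and 0.037 on its pair of probes.

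The families known for foreign compounds and fatty acids that had a probe were each carried by 1 gene, which does not stand for its family. Most values of Cyp2e1 and Cyp1b1 were near fed levels. Cyp2e1, which oxidises ethanol, acetone and other small molecules around the central vein, had log2 fold changes of -0.13, -0.13 and -0.13 on probe 13376. Its 12-hour arrays and 2 usable 72-hour arrays lay below the 2 usable fed arrays by a small margin. The flagged spot of 72-hour replicate 1 stood at 0.066, above the fed arrays. Probe 21110 had -0.018, -0.29 and -0.21. The sample signal of probe 13376 was 3.58 to 12.7 times background and that of probe 21110 was 2.94 to 6.80 times. One version of the names gives these probes no gene, with the remark that probe 21110 is intronic. Their values are for these probes only.

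Cyp1b1, which oxidises polycyclic hydrocarbons and oestrogens, had 0.083, 0.071 and 0.11 on probe 4393. Probe 16313 had 0.11, -0.67 and -0.15, and the second of these came from 1 array, replicate 1 at 24 hours, at -1.76 where replicates 2 and 3 stood at -0.48 and -0.11. On that array the reference spot was at 24.7 times background, and with the sample channel alone the 24-hour difference was 0.14. Cyp20a1, an enzyme of unsettled substrate, had -0.22, -0.22 and 0.035. Its sample spots were well above background on 9 of 12 arrays, and its reference spots were at 0.98 to 2.41 times background.

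The probe named Cyp4v3, a fatty acid hydroxylase, or Klkb1 stood at -0.09, 0.42 and -0.45 in fed liver and at 0.64 and 0.60 on the 2 usable 12-hour arrays. After 24 hours it stood at 0.12, 0.28 and -0.85, and after 72 hours at -1.43, -0.93 and -0.45. The 12-hour arrays lay above all fed arrays and the 72-hour arrays below, the nearest of them by less than the rounding of these values. Blocked by quantification day, the log2 fold change turned to -0.34 at 12 hours and was -0.76 at 24 and -0.92 at 72 hours. The spot of the 12-hour array that shares a day with fed was flagged out. The blocked 12- and 24-hour values are thus tied to fed only through the dim 24-hour replicate 3. Without the block, the log2 fold change was 0.66 (unadjusted p = 0.12), -0.11 and -0.90 (unadjusted p = 0.029, limma adjusted p = 1.00), and the last is 1.87-fold lower. Which of the neighbouring genes the probe reads cannot be told from the files.

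**Figure D3:**
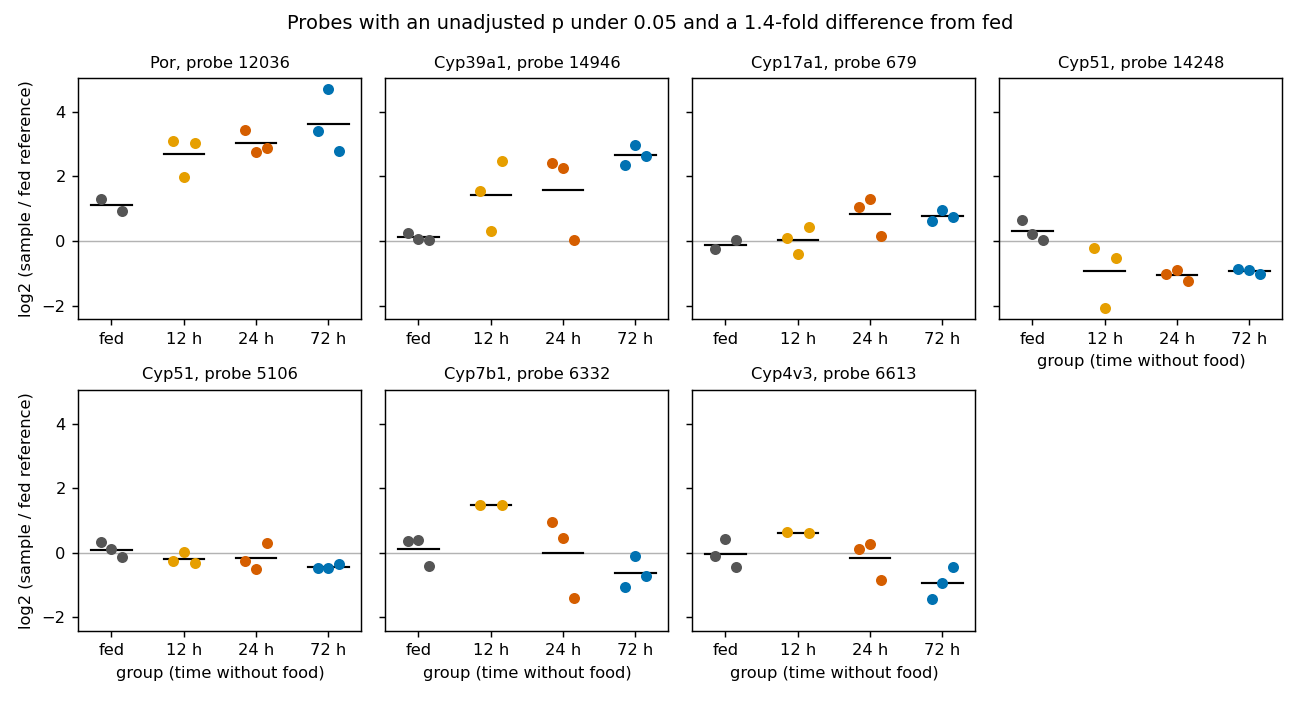
Log2 ratio of sample over fed reference on every usable array for the 7 probes with an unadjusted p under 0.05 and at least 1.4-fold at 1 or more time points; points are arrays, in order of replicate, and the black line is the group mean. Por probe 12036 and Cyp51 probe 14248 do not overlap with fed at any time point, and the 72-hour arrays of Cyp39a1 sit between 2.37 and 2.98 with fed at 0.24 or below.

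The remaining 12 probes had no unadjusted call at any time point. Their log2 fold changes lay between -0.22 and 0.22 at 12 hours, between -0.67 and 0.31 at 24 hours and between -0.21 and 0.34 at 72 hours. The 95% intervals had a median width to either side of 0.41, 0.41 and 0.43, and smaller differences than these could not be told from none. The arrays of 6, 5 and 8 of the 19 members did not overlap with the fed arrays at 12, 24 and 72 hours, where 15.6%, 13.6% and 24.4% of all probes did not.

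For the 7 genes with a pair of probes, the probes can be set beside each other. The pairs of Cyp11a, Cyp1b1, Cyp27b1 and Cyp2e1 had no unadjusted call, and the signs of such values say little about how well a probe stands for its gene. The log2 fold changes of the pair had the same sign for 5 genes at 12 hours, 4 at 24 hours and 3 at 72 hours. The pair differed by a median of 0.36, 0.20 and 0.26 and by at most 1.51, 1.60 and 2.18. The 12-hour median was that of the Cyp11a pair, of which probe 6755 was not well above background at that time. The largest difference was that of the Cyp7b1 pair at 12 hours and of the Por pair at 24 and 72 hours.

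**Figure D4:**
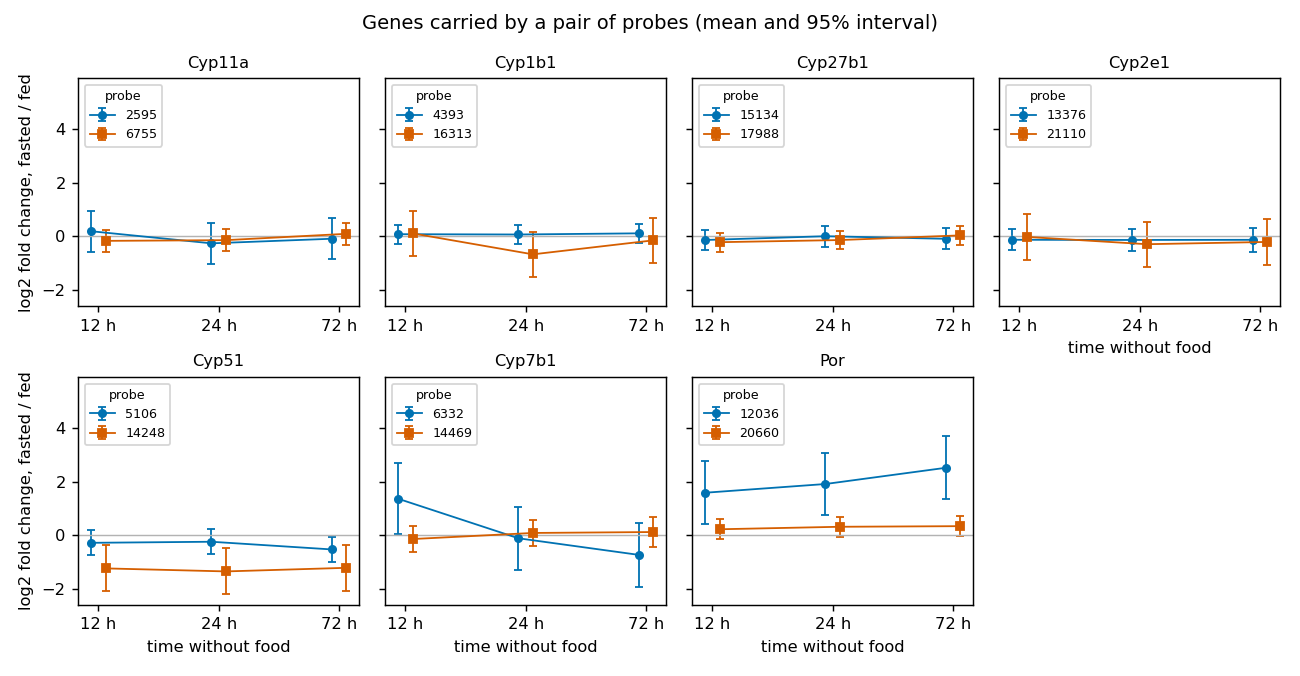
Log2 fold change against fed (y axis) at 12, 24 and 72 hours (x axis) for the 7 genes with a pair of probes, each probe in its own colour with limma's 95% interval. Both Cyp51 probes lie below 0 and both Por probes above 0 throughout, whereas the Cyp7b1 probes part at 12 hours.

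Between fasted groups, limma called 0 of 19 members from 12 to 24 hours and 0 of 19 from 24 to 72 hours, and 0 of 20116 and 0 of 20087 probes in all (0.0% in both). At an unadjusted p under 0.05, 2 members differed from 12 to 24 hours, against 190 of all probes, and 1 from 24 to 72 hours, against 686. These were Cyp17a1, higher by 0.80 at 24 hours, Cyp7b1 probe 6332, lower in log2 terms at -1.48, and the Cyp4v3 or Klkb1 probe, at -0.79 from 24 to 72 hours.

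The other genes of the P450 system showed no call either. Of 42 genes listed, 33 had 37 tested probes, and limma called 0 of these at each time point. At an unadjusted p under 0.05 with 1.4-fold, 1, 1 and 0 were higher and 4, 3 and 2 lower. Of all probes, 1.55%, 1.06% and 1.01% were higher and 1.42%, 0.91% and 0.329% lower at that threshold. Among the electron donors, Cyb5b, outer mitochondrial cytochrome b5, had log2 fold changes of -1.12, -0.90 and -0.70 on probe 16670, each with an unadjusted p under 0.05, and of -0.26, -0.16 and -0.17 on probe 13396, none with one. Cyb5r3, its reductase, had -0.90 and -0.94 at 12 and 24 hours, each with an unadjusted p under 0.05. The electron transfer list had a median of -0.39, -0.35 and -0.29 over 7 probes, on which Por was not counted. In haem metabolism, Cpox of haem synthesis was higher by 0.51 and 0.65 at 12 and 24 hours, Blvra, biliverdin reductase, was lower, with -0.76 and -0.86, and Alad of haem synthesis was lower at 72 hours, with -0.88. Of the nuclear receptors and regulators, 13 of 17 genes listed had a tested probe. Their 16 probes had 0 unadjusted calls and medians of -0.050, 0.048 and 0.036. Nr1i2, Nr1i3, Nr1h4 and Hnf4a, which control P450 genes in liver, had no tested probe, and nothing can be said of them. Adh1, alcohol dehydrogenase, was lower at 12 hours, with -1.80. All values named in these lists are log2 fold changes, and each with an unadjusted call had an adjusted p of 0.956 or more.

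The RNA came from whole liver, in which fewer cells of a type and less RNA per cell cannot be told apart. The differences of all marker lists are given here as log2 fold changes. Of the hepatocyte markers, 3 of 8 genes (Alb, Ttr and Apoa1) had a probe that passed the filter on dim probes. Their median log2 fold change was -0.013, -0.17 and -0.023, with Ttr lowest, at -1.35 after 72 hours (unadjusted p = 0.0011, limma adjusted p = 0.784). The mean log2 ratio of these markers was 0.14 to 0.23 on the fed arrays and -0.43 to -0.00064 on the 72-hour arrays. The macrophage and leukocyte list had 0 unadjusted calls among 7 probes, with medians of -0.51, -0.18 and -0.23, and array means between -0.14 and 0.23 in fed and between -0.21 and -0.11 at 72 hours. The endothelial and stellate list had 1 lower call, Vim at 72 hours, among 7 probes, the bile duct list 0 among 4, and the erythroid list 0 on its 1 probe. Of markers for position in the lobule, Oat around the central vein was higher by 1.31, 1.53 and 1.61 and Pck1 around the portal vein by 1.01, 0.82 and 0.88, with Asl, also around the portal vein, higher by 2.97 at 72 hours, each with an unadjusted p under 0.05. Glul, also around the central vein, had -0.035, -0.35 and -0.066 on probe 3690 and 0.17, 0.11 and 0.65 on probe 17162, and Ass1, around the portal vein, had 0.60, 0.12 and 0.82, with no unadjusted call. Whether the position or share of cells bears on the P450 values was not tested.

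The day on which the images were quantified was not balanced over the groups. All 72-hour arrays shared a day with fed replicates 2 and 3, the fed replicate 1 shared a day with 1 array each of 12 and 24 hours, and the other 12- and 24-hour arrays were quantified on a day without a fed array. Against the fed arrays of their own day, the 72-hour arrays had log2 differences of 2.71 for Por probe 12036, 2.62 for Cyp39a1, 0.74 for Cyp17a1, -1.05 for Cyp51 probe 14248 and -0.92 for the Cyp4v3 or Klkb1 probe. At 24 hours, the one array that shares a day with a fed array differed from it by 1.57 for Por probe 12036, -0.22 for Cyp39a1, 0.43 for Cyp17a1 and -1.87 for Cyp51 probe 14248. At 12 hours the corresponding values were 0.66, 0.062, -0.14 and -2.71. For Cyp39a1, neither the 12- nor the 24-hour difference was thus seen within a day. These arrays are also the dim ones, and what part the day or the brightness has in these values cannot be told apart. Array weights, which were 0.037 and 0.099 for the dim arrays and 0.55 to 7.15 for the other 10, called 4, 6 and 6 members at 12, 24 and 72 hours, when 9.53%, 10.5% and 4.11% of all probes were called.

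**Figure D5:**
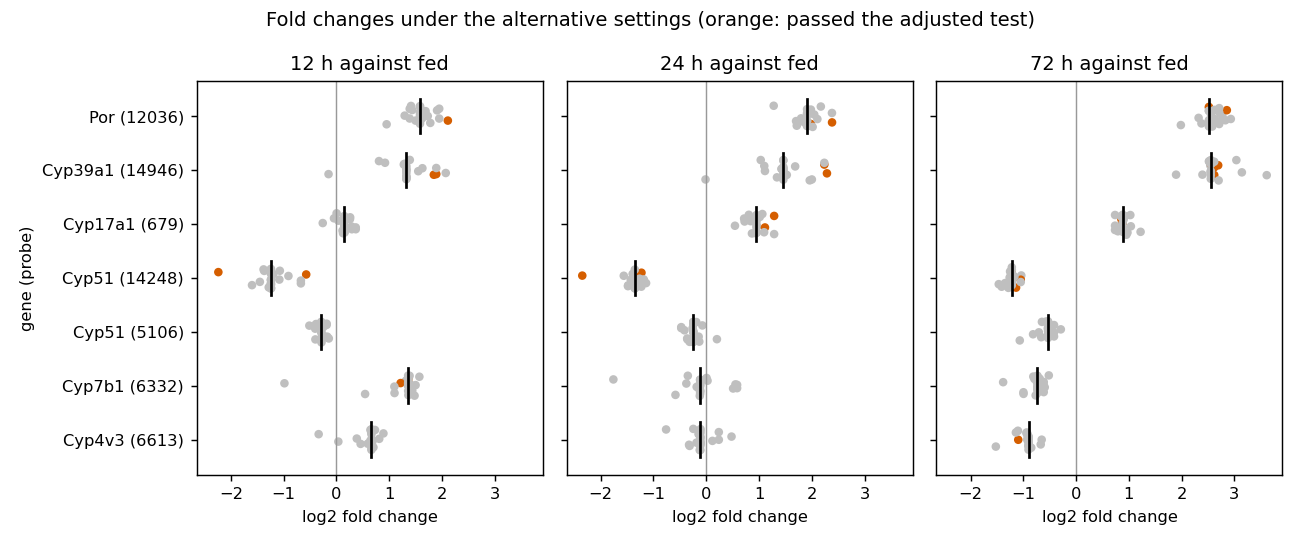
Log2 fold change against fed (x axis) of the 7 probes under each alternative setting (points, spread vertically for sight) beside the reported value (black line); orange points passed the adjusted test under that setting. Por probe 12036 lies above 0 and Cyp51 probe 14248 below 0 under every setting, while Cyp39a1, Cyp17a1, Cyp7b1 and Cyp4v3 each have a point below 0 at 12 hours when blocked by quantification day (-0.15, -0.26, -0.98 and -0.34).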

How the data were processed

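Liver RNA was measured on 12 two-colour Agilent arrays. The deposited scanner files hold intensity values, which Agilent's Feature Extraction software quantified as the median pixel of a spot and of the background around it, not yet normalized. They also hold log10 ratios after the software's own background subtraction and dye normalization, and the deposited value table holds the same log10 ratios with the sign turned (largest difference 4.98e-08 over 257352 values). The authors themselves used background-subtracted medians, quantile normalization and an ANOVA. Median signals and quantile normalization were also used here, with another background correction, and limma took the place of their ANOVA.

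From 21446 spots, 1075 control and 91 retired spots were dropped and 20280 probes kept. Signals were corrected with normexp (offset 50) over all spots, quantile-normalized over 24 channels and turned into log2 ratios to the reference. Outlier spots, by the scanner software's own marks, became missing values, 12 of 228 member values, of which 6 were on fed replicate 2. A probe was tested when every array of 1 or more groups had its sample well above background, which 20116 probes and all 19 members did. Groups came from the titles and source names. The 4 groups were fitted with limma 3.58.1 in R 4.3.3 (lmFit, eBayes), p-values were adjusted over all probes tested, and a probe was called at an adjusted p under 0.05 and at least 1.4-fold. An interval is limma's 95% interval. The procedure was tested on simulated data. The number of arrays and their brightness limit the precision.

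Members were the probes named Cyp and a number, or Por, in any file. All 19 are described, with every probe of a gene given. The members, the lists of pathway genes and markers, and the alternatives were chosen with earlier results of these data known. Lists were matched through both versions of the names and RefSeq synonyms, with Python 3.11.15 and pandas 2.3.3, and figures were drawn with matplotlib 3.10.9. The probe taken for Alb is named Afp in one version of the names. Promoters came from RefSeq (GRCm38.p6). Probe sequences were not used here. The alternatives were a smaller offset (16) and no background correction, loess, the scanner software's log ratio, the sample channel alone, other filters, flagged spots kept, array weights, leaving out the low-signal arrays or each array, and blocks for quantification day and replicate number.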

Additional observations from a re-analysis of the deposited data

Results flagged for a closer look

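On 3 probes, every usable array at 12 hours lay on one side of the mean of the fed arrays and every array at 72 hours on the other. How many of all probes did so was not counted. The 12- and 72-hour arrays did not overlap for 7 of 19 members, and for 19.6% of all 20087 probes. At an unadjusted p under 0.05 by limma, 3 members differed between these time points, against 4.88% of all probes. Cyp17a1, higher by 0.73 at 72 hours on the log2 scale, was among them. For Cyp7b1 probe 6332 and the Cyp4v3 or Klkb1 probe, the 12-hour arrays were above and the 72-hour arrays below. The 72- against 12-hour difference was -2.10 for Cyp7b1 probe 6332 (limma, unadjusted p = 0.0056, adjusted p = 0.729) and -1.56 for the Cyp4v3 or Klkb1 probe (unadjusted p = 0.0027, adjusted p = 0.729). For Cyp11a probe 6755 the order was the other way, with a difference of 0.26 (unadjusted p = 0.15, adjusted p = 0.729), and this probe was not well above background on any 12-hour array. The 3 probes were picked by the position of these same arrays, so that the p-values only describe them. Each of the first 2 probes has only 2 usable arrays at 12 hours, both quantified on a day without a fed or a 72-hour array. No day held arrays of both 12 and 72 hours, and what part the day has in these differences cannot be told apart from the time point.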

How the results depend on the processing

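Members called at 12, 24 and 72 hours against fed, 0 as reported, numbered 4, 6 and 6 with array weights (9.53%, 10.5% and 4.11% of all probes). Once the pair of low-signal arrays was dropped, they numbered 2, 5 and 4 (2.59%, 8.81% and 0.836% of all). Blocked by quantification day, they numbered 1, 1 and 1 (23.2%, 12.0% and 0.0199% of all). Against fed arrays of the same day, 2 were called at 72 hours (Cyp39a1 and Cyp51 probe 14248), with 0.0469% of all probes. From 12 to 24 hours, 3 were called with array weights (0.9% of all). From 24 to 72 hours, 3 were called with array weights (4.26% of all) and 1 with the day as a block (10.6% of all). The median over members is near 0 and changed sign with the setting: at 12 hours it was -0.058 with loess, -0.15 with the scanner software's log ratio, -0.11 with array weights and -0.086 with that pair dropped; at 24 hours -0.049 with loess, -0.18 with the scanner log ratio, 0.14 with the sample channel alone, 0.013 with that pair dropped and 0.081 under the day block; at 72 hours -0.11 with probes well above background on all arrays, -0.056 with array weights, and -0.069 with the day block and with same-day arrays. Leaving out 1 array moved it between -0.086 and 0.13 at 12, -0.16 and 0.013 at 24 and -0.069 and 0.072 at 72 hours and called 0 members. At 12 hours the day block turned Cyp7b1 probe 6332 to -0.98, the Cyp4v3 or Klkb1 probe to -0.34, Cyp17a1 to -0.26 and Cyp39a1 to -0.15. For Cyp7b1 probe 6332 and the Cyp4v3 or Klkb1 probe, no usable 12-hour array shares a day with fed. Their blocked values are tied to fed only through the dim 24-hour replicate 3. The cause was not tested.

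The replicate numbers did not pair the arrays: over 18 pairs with the same number, deviations from the group means correlated at -0.65 to 0.63, and in 7 of 36 matches of an array to another group the own number correlated best. With the replicate block 0 members were called in each of the 5 comparisons, and the calls over all probes at 12, 24 and 72 hours were 2, 2 and 2. Dim reference spots limit what can be said of Cyp39a1, Cyp11a, Cyp19, Cyp20a1, Cyp2e1 and Por probe 12036. The same holds for Cyp51 probe 5106, Cyp1b1 probe 4393 and Cyp7b1 probe 14469.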
